A study of Mus musculus with 6 samples.

Results

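The nuclear genes of oxidative phosphorylation were compared, complex by complex, between adrenal glands of adult female mice with developmental NMDAR antagonism and those of controls. Members were taken by gene symbol. They were every probe set annotated with exactly 1 symbol that began with Nduf, Uqcr, Atp5, Cox4i, Cox5, Cox6, Cox7 or Cox8, or that was Sdha, Sdhb, Sdhc, Sdhd, Cyc1 or Cycs, without Cox7a1 and Cox8b. This gave 114 probe sets for 88 genes, out of 15384 genes named in this way, and each gene was represented by the probe set with the highest mean over the 6 arrays. By their names 43 genes belonged to complex I, 4 to complex II, 9 to complex III, 14 to complex IV and 17 to complex V, and Cycs encodes cytochrome c. The prefixes also brought in 9 genes that are assembly factors or are otherwise not established subunits, among them Ndufaf1 to Ndufaf7, Ndufa4l2 and Cox7a2l.

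All animals were female C57Bl/6J mice aged 21 weeks. The CGP group had been exposed before birth and up to weaning to CGP 39551 (CGP), which blocks the NMDAR, a glutamate receptor of the N-methyl-D-aspartate type, and which their mothers received by mouth at 5 mg/kg body weight, and the control group had not. RNA of 18 mice was pooled in each group, and 3 Affymetrix whole-transcript arrays were run per group. It is not stated whether the 3 arrays of a group carried separate pools, so the p-values measure only the spread between arrays, which may be technical. All 10 markers of the adrenal cortex (mean log2 values 11.9 to 14.0) and all 7 measured markers of the medulla (9.07 to 13.5) were well above the array background of 6.42 to 6.65. In whole tissue, fewer cells of a type and less RNA per cell cannot be told apart.

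In the mitochondrial inner membrane, complexes I and II pass electrons from NADH and succinate to ubiquinone, complex III hands them to cytochrome c, and complex IV passes them to oxygen. Complexes I, III and IV pump protons, and complex V, the ATP synthase, uses the returning protons to make ATP. In the adrenal cortex the same organelle also carries out side-chain cleavage of cholesterol and the last steps of corticosterone and aldosterone synthesis, for which electrons come from NADPH through adrenodoxin and not from this chain. Most subunits are encoded in the nucleus, and the factors NRF1, GABP (of the ETS family) and YY1 are known to bind many of their promoters.

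The promoters of 3 members are shown because Sdha was the only member higher in the CGP group after adjustment, and Ndufs5 and Ndufb3 are the accessory subunits of complex I whose measured differences were the most negative and the most positive. Neither of the latter passed the test, and for Ndufs5 a second probe set shared with a pseudogene differed in the other direction. Each line gives the 250 bases before the transcription start, read along the gene, from the RefSeq annotation of GRCm38.p6. They lie at chr13:74350241-74350490 (minus strand) for Sdha, chr4:123718187-123718436 (minus strand) for Ndufs5 and chr1:58586147-58586396 (plus strand) for Ndufb3. Capitals mark matches to the NRF1 site, searched on either strand as GCGCA and GCGC with any base between them.
Sdha: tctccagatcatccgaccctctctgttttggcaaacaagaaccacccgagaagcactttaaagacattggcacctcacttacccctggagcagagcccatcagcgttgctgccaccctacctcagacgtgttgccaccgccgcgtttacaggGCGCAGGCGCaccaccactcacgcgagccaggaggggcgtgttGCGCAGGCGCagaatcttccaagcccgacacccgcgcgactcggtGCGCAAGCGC
Ndufs5: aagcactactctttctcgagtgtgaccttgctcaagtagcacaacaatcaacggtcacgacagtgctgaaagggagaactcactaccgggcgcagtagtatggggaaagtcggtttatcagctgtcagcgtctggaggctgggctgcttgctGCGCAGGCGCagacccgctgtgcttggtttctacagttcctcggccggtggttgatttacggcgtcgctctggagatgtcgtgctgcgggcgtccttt
Ndufb3: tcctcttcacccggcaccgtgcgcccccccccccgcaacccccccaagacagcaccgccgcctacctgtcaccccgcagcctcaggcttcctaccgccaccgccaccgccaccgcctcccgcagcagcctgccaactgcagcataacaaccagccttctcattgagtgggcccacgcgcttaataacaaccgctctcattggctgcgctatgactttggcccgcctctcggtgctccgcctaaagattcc
The Sdha promoter held 3 matches, whose first bases lay 98, 55 and 10 bases before the start. The Ndufs5 promoter held 1, beginning 98 bases before the start, and that of Ndufb3 held none of the motifs searched. Among all 32851 promoter windows of this annotation, reaching from 250 bases before to 50 bases after a start, 32 windows (0.0974%) held at least 3 such matches. Of the 76 member windows, 1 did so, that of Sdha, and 3 held at least 2 (Sdha, Cox6a1 and Uqcrc1). Sdha was picked by its difference, and a part of these sites in that difference was not tested.

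A promoter window was found for 71 of the 88 genes, in 76 windows, and none was available for 17, Atp5mpl, Ndufs1, Cox6a2 and Cox4i2 among them. The NRF1 letters occurred in 19 of the 76 windows (25.0%) and in 1512 of all windows (4.6%). The YY1 letters AAGATGGC, on either strand, were found in 10 member windows (13.2%) and in 2.75% of all windows, and the ETS letters CCGGAAGT in 5 (6.58%) and in 3.89%. The NRF1 letters share no bases with the other motifs at any of the sites printed above. The 18 genes with an NRF1 match had a median log2 difference between CGP and control of -0.04, with 3 above zero, and the 53 genes without a match had a median of -0.02, with 19 above zero.

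Differences in the expression of oxidative phosphorylation genes between the groups were small. Of the 88 genes, all of which passed the filter on low values, 1 was higher in CGP (Sdha), 1 was lower (Atp5mpl) and 86 did not pass the test (limma, Benjamini-Hochberg adjusted p under 0.05 over 16034 probe sets). Among all probe sets tested 3.53% passed, 1.94% as higher and 1.59% as lower. The median log2 difference of the members, CGP minus control, was -0.02, beside -0.01 over all probe sets tested. The differences ran from -0.30 (Cox6a2) to 0.20 (Sdha), with 30 above and 58 below zero, beside 7305 above and 8729 below over all probe sets. An unadjusted p under 0.05 was reached by 14 members, 3 higher and 11 lower, beside 19.3% of all probe sets, of which 1729 were higher and 1366 lower. The values of the groups did not overlap in 9 members that were higher in CGP, where 13.7% of all probe sets did so, and in 20 that were lower, where the share of all probe sets was 12.6%.

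The interval of the difference says how large a change could have been missed between these arrays. The 95% interval lay within 1.2-fold in either direction for 76 of the 88 genes and within 1.5-fold for all 88. Over all probe sets tested it lay within 1.2-fold for 10465 and within 1.5-fold for 15704 of 16034. The outermost bounds were -0.47 for Cox6a2 and 0.30 for Sdha. These intervals cover the spread between arrays and not that between mice.

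**Figure D1:**
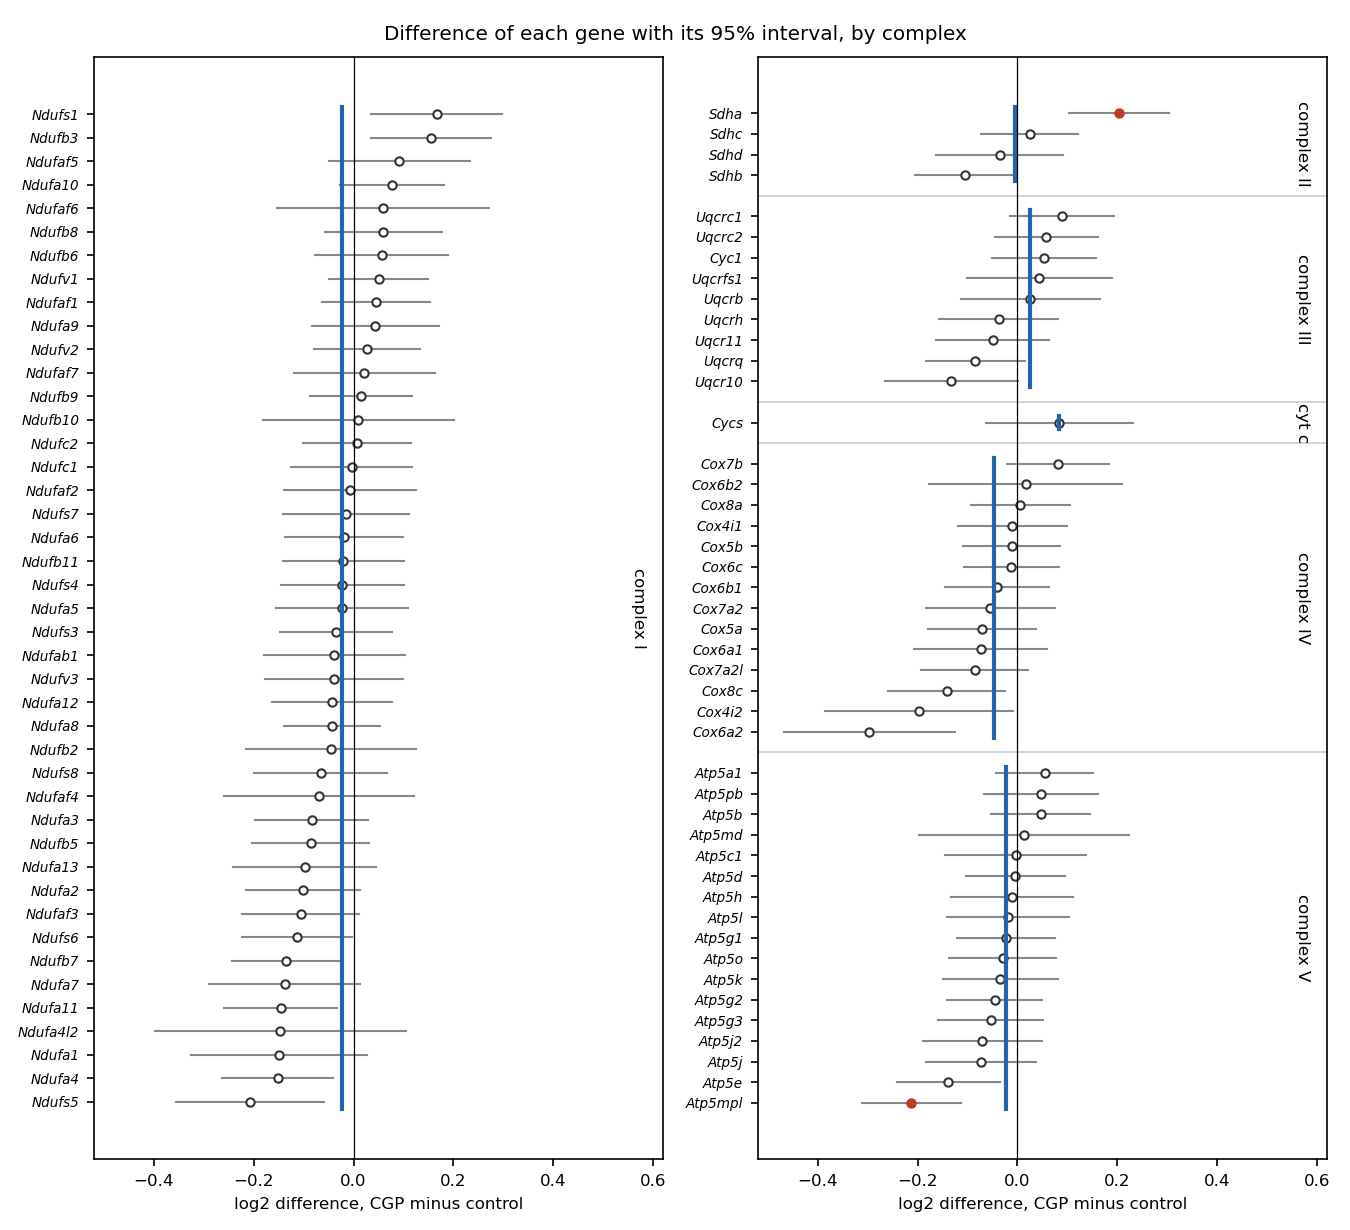
Log2 difference between the CGP and control arrays (horizontal axis) for each of the 88 genes (vertical axis), grouped by complex, with 95% intervals, the median of each complex as a blue bar and genes with an adjusted p under 0.05 filled in red. Only Sdha (0.20) and Atp5mpl (-0.21) are filled, and the complex medians lie between -0.05 and 0.03, with the lone gene of cytochrome c at 0.08.

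Complex I takes electrons from NADH. None of its 43 genes passed the test, 15 lay above zero and 28 below, and the median difference was -0.02. Its 6 catalytic core subunits of nuclear origin had a median of 0.01, with 3 above zero, and its 29 accessory subunits a median of -0.04, with 8 above zero. These 29 include Ndufa4, counted in complex I by its name though since assigned to complex IV. The 7 Ndufaf assembly factors had a median of 0.02, with 4 above zero. Of these, Ndufaf5, which modifies the core subunit Ndufs7 during assembly, was above background on 1 of 6 arrays, so its difference of 0.09 says little.

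Ndufs1, the largest core subunit and a carrier of iron-sulphur clusters, gave log2 values of 9.21, 9.03 and 9.14 on the control arrays and 9.27, 9.33 and 9.28 on the CGP arrays. All 3 CGP values were above the controls, by 0.17 on average (SE 0.06, adjusted p = 0.164). Ndufb3, an accessory subunit of the membrane arm, gave 8.37, 8.50 and 8.44 in controls and 8.55, 8.60 and 8.62 in CGP. Again the groups did not overlap, and the difference was 0.15 (SE 0.05, adjusted p = 0.158).

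On the other side of zero, Ndufs5, an accessory subunit that faces the intermembrane space, gave 8.84, 8.95 and 8.87 in controls and 8.79, 8.67 and 8.58 in CGP. Every CGP value lay below the controls, and the difference was -0.21 (SE 0.06, adjusted p = 0.135). A second probe set, which the annotation gives to both Ndufs5 and its pseudogene Ndufs5-ps and which is therefore no member, differed by 0.12 in the other direction, so the sign of this gene is uncertain. Ndufa4, named for complex I but since assigned to complex IV, gave 11.23, 11.19 and 11.29 in controls and 11.13, 11.08 and 11.06 in CGP. The groups did not overlap at a difference of -0.15 (SE 0.05, adjusted p = 0.141). Its paralogue Ndufa4l2, known as a target of hypoxia-inducible factors, also differed by -0.15, but its groups overlapped (adjusted p = 0.493). Ndufc2, an accessory subunit of the membrane arm, differed by 0.01, with an interval from -0.10 to 0.12.

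Complex II is succinate dehydrogenase, which the chain shares with the tricarboxylic acid cycle, and its 4 subunits are all nuclear. Sdha, the flavoprotein that oxidises succinate, gave 11.17, 11.19 and 11.20 in controls and 11.36, 11.42 and 11.38 in CGP. Every CGP value exceeded every control value, and Sdha rose 1.15-fold (11.18 ± 0.01 to 11.39 ± 0.03, SD, n = 3 arrays each). The log2 difference was 0.20 (SE 0.04, interval 0.10 to 0.30, limma adjusted p = 0.0476).

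Its partner Sdhb, the iron-sulphur subunit, lay on the opposite side, at 11.01, 10.97 and 10.96 in controls and 10.85, 10.89 and 10.89 in CGP. The groups did not overlap, but the difference of -0.11 did not pass the test (SE 0.04, adjusted p = 0.240). The membrane anchors Sdhc (0.02, adjusted p = 0.784) and Sdhd (-0.04, adjusted p = 0.755) overlapped between groups. The median over the 4 genes was -0.01. The call of Sdha was close to the threshold. With any 1 of the 6 arrays left out, the adjusted p of Sdha was between 0.0610 and 0.209, with the difference between 0.19 and 0.22, and it was 0.0534 with no filter on low values, 0.104 when all probe sets of the table were tested and 0.0576 after median centring.

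**Figure D2:**
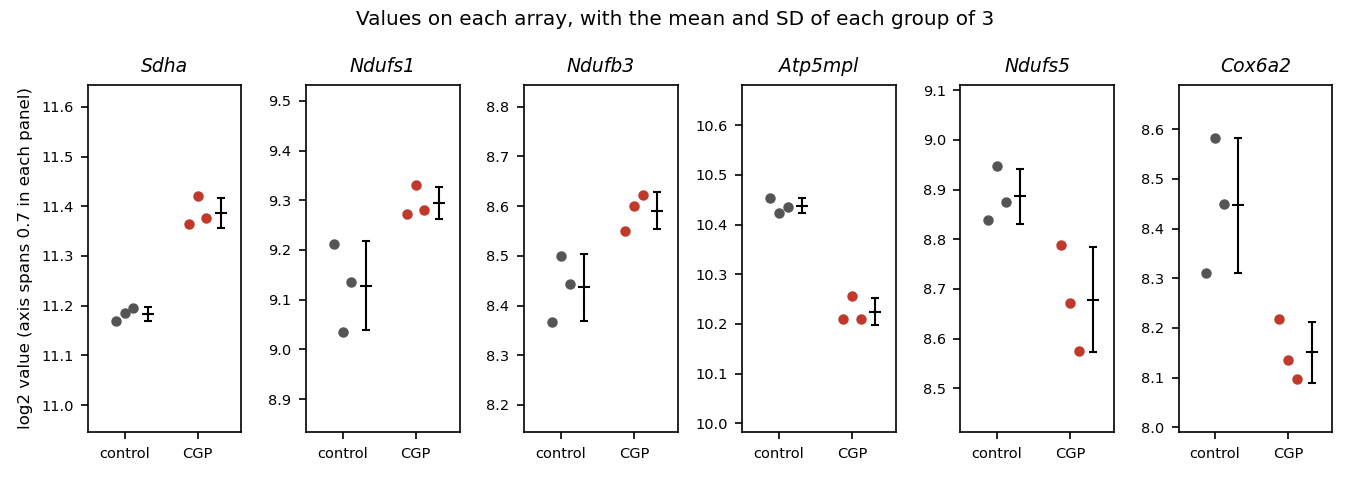
Log2 values (vertical axis, spanning 0.7 in every panel) of 6 genes on the 3 control arrays (grey) and the 3 CGP arrays (red), beside black bars for group means and SDs. No panel shows an overlap between groups, and only Sdha (0.20) and Atp5mpl (-0.21) had an adjusted p under 0.05.

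In complex III, which oxidises ubiquinol, none of the 9 genes passed the test, and the median was 0.03. Its 4 larger subunits all lay above zero, with a median of 0.06. These were the core proteins Uqcrc1 (0.09, adjusted p = 0.323) and Uqcrc2 (0.06, adjusted p = 0.513), cytochrome c1 (Cyc1) and the Rieske iron-sulphur protein Uqcrfs1 (0.04, adjusted p = 0.736). Uqcrc1 gave 11.63, 11.65 and 11.62 in controls and 11.76, 11.68 and 11.73 in CGP, with no overlap. Of the 5 small accessory subunits, 4 lay below zero, with a median of -0.05. Uqcr10 differed by -0.13 (adjusted p = 0.260) and Uqcrq by -0.08 (adjusted p = 0.324), whereas Uqcrb differed by 0.03. The 3 probe sets of Uqcrb ran from -0.01 to 0.04. Cytochrome c itself (Cycs) gave 12.61, 12.41 and 12.48 in controls and 12.52, 12.59 and 12.64 in CGP. The groups overlapped, and the difference was 0.08 (SE 0.06, adjusted p = 0.507).

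Complex IV, cytochrome c oxidase, has a catalytic core encoded by mitochondrial DNA, and its nuclear subunits are accessory ones, several with tissue-specific isoforms. None of the 14 genes passed the test, 3 lay above zero and 11 below, and the median of -0.05 was the lowest among the complexes. These values leave out Ndufa4, counted in complex I by its name. They also leave out Cox7a1 and Cox8b, which are given below. The widely expressed isoforms lay near zero, with Cox4i1 at -0.01, Cox8a at 0.01, Cox6b1 at -0.04, Cox7a2 at -0.05 and Cox6a1 at -0.07. For Cox6c the 3 control values were 13.51, 13.51 and 13.49 and the CGP values 13.49, 13.50 and 13.49, with an interval of the difference from -0.11 to 0.08. Cox7b differed most in the other direction (0.08, adjusted p = 0.359), with no overlap between groups.

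The larger negative differences belonged to isoforms known for other tissues. Cox6a2, the isoform of heart and skeletal muscle, gave 8.31, 8.58 and 8.45 in controls and 8.22, 8.14 and 8.10 in CGP. The groups did not overlap, and the difference of -0.30 did not pass the test (SE 0.07, adjusted p = 0.0771). It did so in 1 of the 6 fits that left out 1 array, without control 1 (adjusted p = 0.0227). In these fits the adjusted p reached up to 0.255. Of 4 skeletal muscle markers measured, none passed the test and 3 lay below zero, with a median of -0.12 and a per-array median of 7.13 to 7.33 in controls and 7.05 to 7.18 in CGP. The part of muscle RNA in the Cox6a2 values was not tested. Cox4i2, the isoform known from lung and from responses to low oxygen, gave 7.78, 7.76 and 8.01 in controls and 7.76, 7.56 and 7.65 in CGP. The groups touched without overlapping, and the difference was -0.20 (SE 0.08, adjusted p = 0.240). Cox8c, a testis isoform, lay under the array background on all 6 arrays, so its difference of -0.14 cannot be read as a change. Cox6b2, likewise known from testis, differed by 0.02, and Cox7a2l, which helps join complexes III and IV into supercomplexes, by -0.09 (adjusted p = 0.356).

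The isoforms Cox7a1 and Cox8b, known from brown fat and muscle and kept out of the members by the rule, both rose. Cox7a1 gave 9.37, 9.27 and 9.43 in controls and 9.78, 9.83 and 9.84 in CGP. It rose 1.38-fold (limma adjusted p = 0.00322). Cox8b gave 11.05, 11.06 and 11.07 in controls and 11.59, 11.61 and 11.59 in CGP, and rose 1.46-fold (limma adjusted p = 0.000308). Within each array, the difference between Cox7a1 and its paralogue Cox7a2 was 0.52 higher in CGP, and that between Cox8b and Cox8a 0.54 higher. The corresponding shifts were -0.22 for Cox6a2 against Cox6a1, -0.19 for Cox4i2 against Cox4i1 and 0.06 for Cox6b2 against Cox6b1. These paired shifts are descriptions and were not tested.

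**Figure D3:**
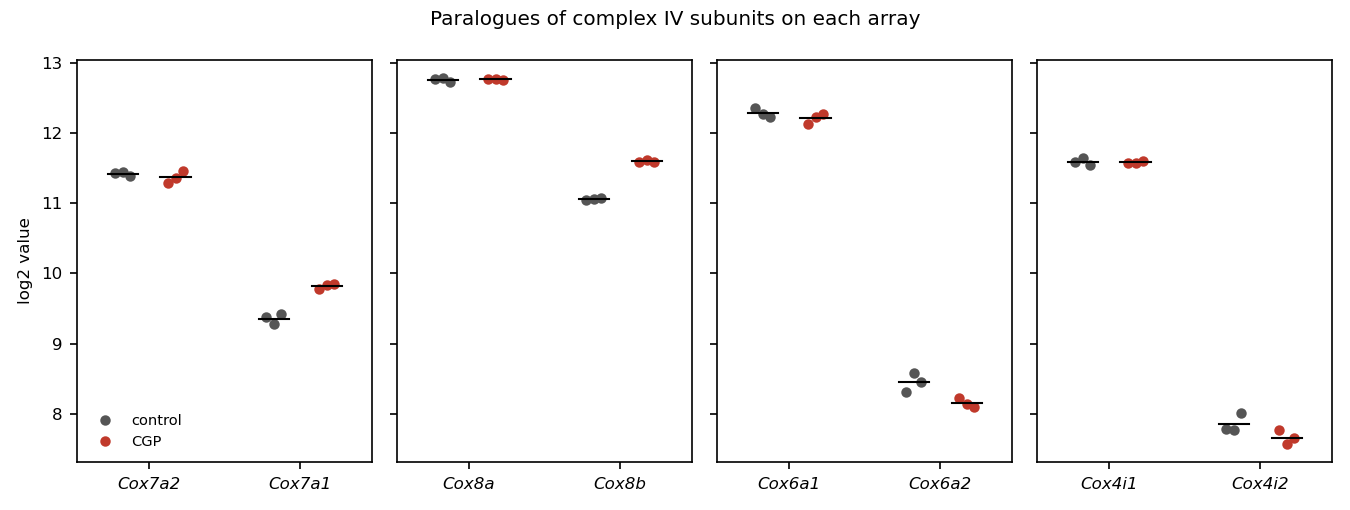
Log2 values (vertical axis) of pairs of complex IV paralogues (horizontal axis) on the 3 control arrays (grey) and the 3 CGP arrays (red), with group means as black bars. Cox7a1 (0.46) and Cox8b (0.54) are higher on every CGP array, while Cox7a2 (-0.05) and Cox8a (0.01) overlap between groups. Levels of different probe sets are not comparable with each other.

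Complex V is the ATP synthase. Of its 17 genes 1 was lower in CGP, none was higher and 16 did not pass the test. The median was -0.02, with 4 above zero and 13 below. Atp5mpl, a small hydrophobic protein of the membrane part, gave 10.45, 10.42 and 10.44 in controls and 10.21, 10.26 and 10.21 in CGP. Every CGP value lay below every control value, and Atp5mpl fell 1.16-fold (10.44 ± 0.02 to 10.23 ± 0.03, SD, n = 3 arrays each). The log2 difference was -0.21 (SE 0.04, interval -0.31 to -0.11, limma adjusted p = 0.0403). This call too was near the threshold. The adjusted p ran from 0.0536 to 0.156 in the fits that left out 1 array, and was 0.0893 with all probe sets of the table, while the difference stayed between -0.23 and -0.20 without any 1 array.

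No gene of the catalytic head or the stalks of the enzyme passed the test. Atp5a1, its alpha subunit, gave 12.37, 12.37 and 12.35 in controls and 12.41, 12.44 and 12.40 in CGP, which do not overlap at a difference of 0.05 (adjusted p = 0.511). Atp5d, the delta subunit of the central stalk, differed by less than 0.01, with an interval from -0.10 to 0.09. Atp5e, the epsilon subunit of the same stalk, gave 9.83, 9.79 and 9.76 in controls and 9.63, 9.67 and 9.66 in CGP. These do not overlap, and the difference was -0.14 (SE 0.04, adjusted p = 0.143). Atp5pb, a subunit of the peripheral stalk, differed by 0.05 (adjusted p = 0.643), and by -0.01 on its second probe set. Atp5k, subunit e of the membrane part, differed by -0.03 (adjusted p = 0.737). Atp5g1, Atp5g2 and Atp5g3 encode the same mature subunit c of the rotating ring, and they differed by -0.02, -0.05 and -0.05, with adjusted p from 0.553 to 0.796.

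Across complexes, the differences were also set out by the place of each gene product. The 22 core subunits had a median of 0.01, with 11 above and 11 below zero, and the 56 accessory subunits a median of -0.04, with 14 above and 42 below. In core subunits the groups did not overlap in 6 genes that were higher and 3 that were lower in CGP. In accessory subunits these counts were 3 and 15. The 15 include Cox8c, which lay under the array background, and the isoforms Cox6a2 and Cox4i2. All genes of complex II were counted as core and none of complex IV was, so the classes also differ in their complexes. Over all probe sets tested, 13.7% were higher and 12.6% lower without overlap, and 7305 lay above and 8729 below zero. The difference between both classes was not tested, since the genes share arrays and are not replicates.

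Gene span, the distance from the start to the end of a gene, moved with the differences as well. The members are compact, with a median span of 7336.5 bp against 21263 bp for all probe sets tested. The 30 members of up to 5477 bp had a median difference of -0.04, with 8 above zero. The 29 above that and up to 9102 bp had a median of -0.02, with 9 above zero, and the 29 longer ones a median of -0.01, with 13 above zero. All probe sets in the same spans had medians of -0.06, -0.05 and 0.01, with 23.4%, 28.9% and 53.3% above zero. Spearman's rho between span and difference was 0.28 over the 88 members and 0.36 over 15990 probe sets, and that between mean level and difference was 0.22 over the members. These are correlations across genes of the same 6 arrays, and genes are not independent replicates. Core subunits had a median span of 7935 bp and accessory subunits one of 6811.5 bp. The part of gene span in the differences was not tested.

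**Figure D4:**
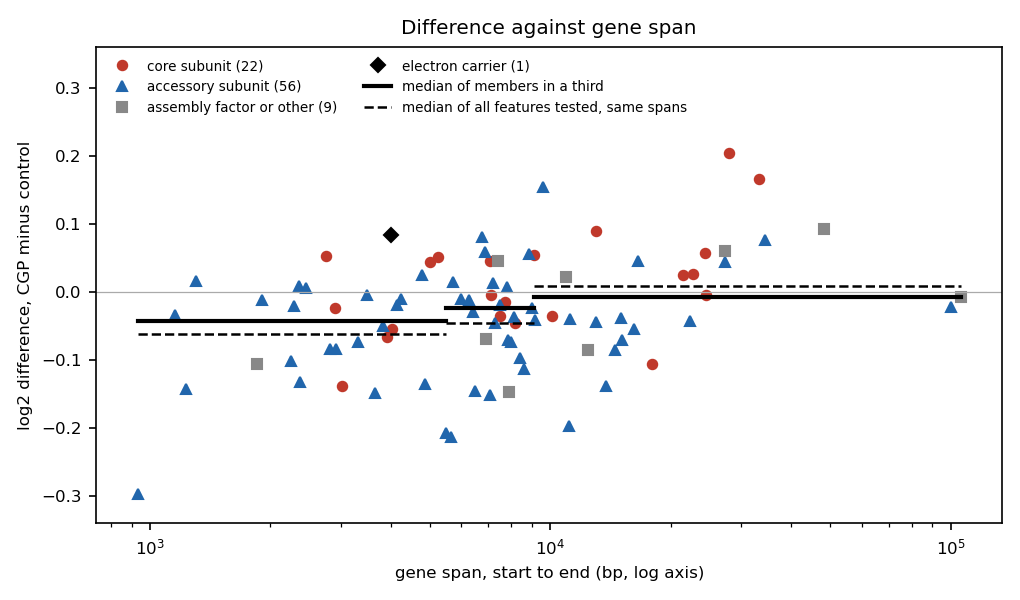
Log2 difference between the CGP and control arrays (vertical axis) against gene span in bp (horizontal axis, log scale) for the 88 genes, by class, with the median of the members in each class of spans (solid bars) and of all probe sets tested in the same spans (dashed bars). Both medians are lowest for short genes (-0.04 and -0.06) and highest for long ones (-0.01 and 0.01).

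Other genes of energy metabolism were taken from lists. Of the subunits encoded by mitochondrial DNA, 2 were tested, and neither passed. COX2 of complex IV differed by 0.11 (adjusted p = 0.323) and ND3 of complex I by 0.10 (adjusted p = 0.444). Of 34 assembly factors outside the prefixes, none passed, 11 lay above zero and 23 below, and the median was -0.02. In the tricarboxylic acid cycle and pyruvate dehydrogenase, 1 of 17 genes rose and 16 did not pass. Of the 17, 16 lay above zero, with a median of 0.10. Over all probe sets tested, 7305 lay above and 8729 below zero. The 17 genes had a median span of 23764 bp, and 53.3% of all probe sets with spans over 9102 bp lay above zero. The gene that rose was Idh3a, a subunit of the NAD-dependent isocitrate dehydrogenase (9.99, 9.88 and 9.95 in controls, 10.30, 10.23 and 10.23 in CGP, limma adjusted p = 0.0160). It kept its call in 2 of the 6 fits that left out 1 array and lost it when all probe sets of the table were tested (adjusted p = 0.0518).

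A further 23 genes make or handle ubiquinone, bring electrons to it by other routes, or carry nucleotides or phosphate across the mitochondrial membranes. Of these, 2 rose and 21 did not pass, with a median of 0.03. Gpd2, the mitochondrial glycerol-3-phosphate dehydrogenase, rose by 0.33 (limma adjusted p = 0.00998), and Etfdh, which passes electrons from fatty acid oxidation to ubiquinone, by 0.29 (limma adjusted p = 0.0295). Of 20 regulators of mitochondrial gene expression, 1 rose and 19 did not pass, with a median of 0.03. The gene that rose was Ppargc1a, a coactivator of mitochondrial biogenesis that is also on the brown fat list (7.23, 7.10 and 7.14 in controls, 7.52, 7.65 and 7.47 in CGP, limma adjusted p = 0.0156). With 1 array left out, Gpd2 kept its call in 4 of 6 fits, Ppargc1a in 3 and Etfdh in 1. With all probe sets of the table tested, Ppargc1a (adjusted p = 0.0579) and Etfdh (adjusted p = 0.0861) lost theirs.

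Markers of fat moved up in the same arrays, and 8 of 9 markers of liver moved down. Of 8 brown fat markers, 6 rose, and Cox7a1, Cox8b and Ppargc1a, already given above, are 3 of these 6. The mean over the 8 markers, relative to the 6 arrays, was -0.36 to -0.26 in controls and 0.27 to 0.31 in CGP. Ucp1, the uncoupling protein that lets protons return without making ATP, gave 10.97, 10.86 and 10.89 in controls and 12.11, 12.11 and 12.16 in CGP, a rise of 2.33-fold (limma adjusted p = 4.33e-05). Elovl3, a fatty acid elongase, rose by 0.91 and Cidea, a lipid droplet protein, by 0.66. Of 8 adipocyte markers, 6 rose, among them Slc2a4, Lpl, Adipoq and Cidec, and their median on an array was 11.3 in each control and 11.5 to 11.6 in CGP. Of 9 hepatocyte markers, 8 fell, Apoa2, Cps1, Hgd and Cyp7a1 among them. The per-array median went from 11.6 to 11.7 in controls to 10.8 to 10.9 in CGP. The remaining marker, Cyp2e1, went the other way, by 0.17. Its groups did not overlap, and it did not pass the test (limma adjusted p = 0.0706). The part of fat or liver RNA in the values of the oxidative phosphorylation genes was not tested.

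On the same scale as the brown fat markers, the mean of the 88 genes was -0.0047 to 0.0269 in controls and -0.0255 to 0.000197 in CGP, and the mean of complex IV was 0.02 to 0.04 in controls and -0.03 on each CGP array. The means of complexes IV and V were lower on every CGP array than on any control, with gaps of 0.0446 and 0.00353, and those of complexes I, II and III overlapped between the groups. The per-array medians of complexes IV and V did overlap, at 11.46 to 11.55 in controls and 11.43 to 11.53 in CGP for complex IV and at 12.13 to 12.23 and 12.10 to 12.17 for complex V. The mean of complex IV includes Cox6a2, Cox4i2 and Cox8c, which had the most negative differences of the complex, and Cox8c lay under background. That mean leaves out the isoforms Cox7a1 (0.46) and Cox8b (0.54), which rose and which the rule kept out. The lower mean in CGP therefore holds for the members alone. Of the markers of the gland itself, Cyp11b2, aldosterone synthase, was the only cortex marker of 10 that rose (0.50, limma adjusted p = 0.00144), and none of the 7 medulla markers passed the test. All 10 cortex markers lay above zero, beside 7305 of 16034 probe sets tested. In 5 of the 10 the groups did not overlap, and 13.7% of all probe sets were higher in this way. The mean of the cortex markers on the same scale was -0.08 to -0.03 in controls and 0.02 to 0.07 in CGP. Their median difference was 0.06, and that of the medulla markers was -0.01. The part of cortex RNA in the values of the members was not tested. Of 5 kidney markers, Slc34a1 was the only one tested, and it differed by -0.08.

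**Figure D5:**
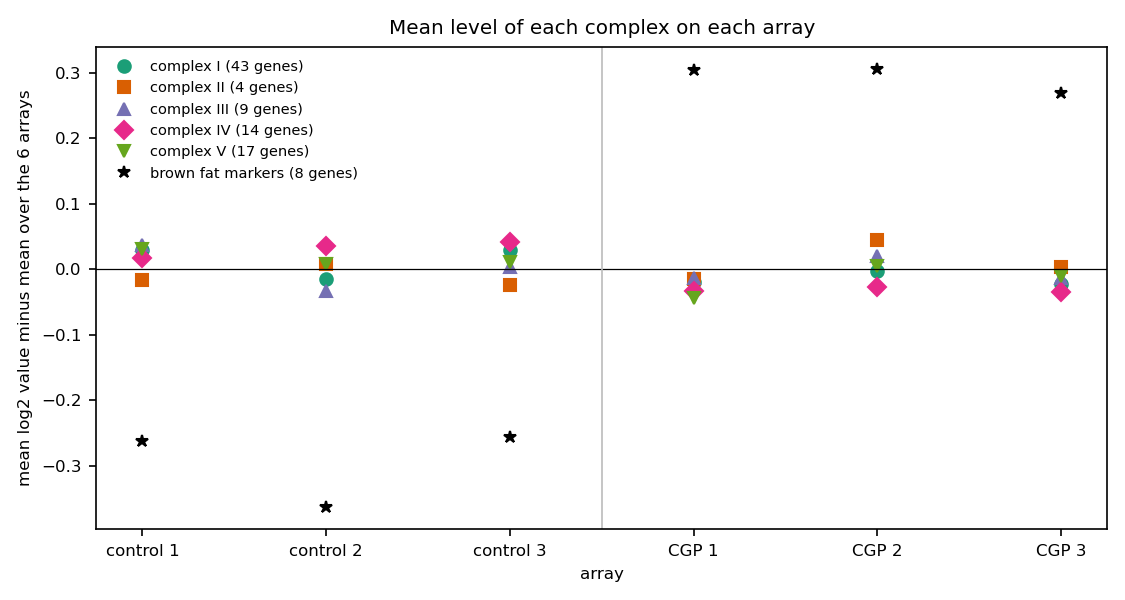
Mean log2 value of each complex and of 8 brown fat markers on each array, relative to the mean over the 6 arrays (vertical axis), for the 3 control and 3 CGP arrays (horizontal axis). The brown fat markers lie between -0.36 and -0.26 in controls and between 0.27 and 0.31 in CGP, while every complex stays within 0.05 of zero. Cox7a1 and Cox8b are among the brown fat markers and were kept out of complex IV by the rule.

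The annotation limits which genes could be followed. Of the 88 genes, 18 had more than 1 probe set, and the differences of such probe sets lay within 0.07 of each other, with the widest gap in Atp5l, which had 6. None of those probe sets passed the test. In some of these genes, Atp5pb, Uqcrb and Atp5l among them, the probe sets lay on both sides of zero. The counts of members above and below zero rest on the brightest probe set of each gene. Many subunit genes have processed pseudogenes of similar sequence, and their probe sets may measure several loci. Cox7c and Ndufb4 are absent from the members because their probe sets carried several symbols, with Gm12338 and Ndufb4b. The 3 probe sets of Cox7c differed by -0.01 to 0.00 and those of Ndufb4 by -0.04 and -0.03. These genes, Atp5l, Cyc1, Ndufs7, Ndufaf6, Slc34a1, Cyp2e1, COX2 and ND3 were named outside the rule for named genes, after their values were seen.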

How the data were processed

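Adrenal RNA of 6 samples, 3 control and 3 CGP, was measured on arrays, and the sample titles gave group and array number. The authors deposited log2 expression values, which the submitters' processing notes credit to RMA (background correction, quantile normalisation and summary of probes) and Partek. Not given in the sources used here are versions, genome build and annotation. The deposited values were not normalised again. Precision is limited by the number of arrays, which have no read depth.

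Of 25150 probe sets, the platform annotation gave 1 gene symbol to 16769 (66.7%), several to 1031 and none to 7350. Tests covered probe sets with 1 symbol whose log2 value reached 6 on 3 or more of the 6 arrays, which left out 735 and kept 16034. CGP and control were compared by lmFit and eBayes of limma 3.58.1 (R 4.3.3; two-sided, no covariates), with Benjamini-Hochberg adjustment over all probe sets tested. SE is the moderated standard error. Background of an array was the 75th percentile of 127 sensory receptor probe sets. Scripts were tested on simulated data. Promoters and gene spans came from RefSeq tables of GRCm38.p6, matched for 71 and 88 of the 88 members. Plots were drawn with matplotlib 3.10.9.

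The members and gene lists were chosen with earlier results of these data known, so no test over a list was run. The text names members with an adjusted p under 0.05, the 2 largest differences in each direction and the highest and lowest level per complex, sets of paralogues, the Sdh genes, Ucp1, Cox7a1 and Cox8b, and up to 4 genes with the smallest adjusted p under 0.05 per other list. Alternatives were the array number as a block, other filters, all probe sets, quantile normalisation, median centring, a variance trend with a robust prior, array weights, the mean of the probe sets of a gene, subunits alone and leaving out each array.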

Additional observations from a re-analysis of the deposited data

How the results depend on the processing

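Of the 88 genes, 1 was higher and 1 lower as reported, out of 566 probe sets called. With the array number as a replicate block these counts were 0, 0 and 224, with every probe set tested 0, 0 and 348, with a variance trend and robust prior 1, 4 and 1261, and with array weights 1, 6 and 1665. The genes gained were Cox6a2, Ndufa4 and Ndufa11 (named after its value was seen) in both of the last settings, and Cox4i2 and Ndufs5 with array weights. The count of higher genes was 0 without the filter and after median centring. Without any 1 array, 0 genes were higher, 0 to 1 lower (Cox6a2, without control 1) and 236 to 1099 probe sets were called. The deviations of control and CGP arrays of the same number correlated at -0.36, -0.17 and -0.12, and those of different numbers at -0.16 to 0.28. Deviations centred within groups of 3 constrain each other, so these values cannot settle whether the numbers pair the samples. The median log2 fold change of complex II (-0.01) was 0.0183 with array weights and -0.0279 to 0.0138 without any 1 array. The median log2 fold change of complex III (0.03) was -0.00975 to 0.0503 without any 1 array, with the lowest value without control 2. In the other settings all medians moved by less than the spread between replicates. The cause of these shifts was not tested. The median over all probe sets tested stayed between -0.02 and 0.00 in every setting. For single named genes, 750 combinations of gene and setting kept the side of the threshold, 7 gained a call and 39 lost theirs. The difference changed sign in 20 combinations, of 7 genes, 0 of which were called. With the replicate block the calls of Sdha (adjusted p = 0.200), Atp5mpl (0.191), Idh3a (0.0785), Ppargc1a (0.0810), Gpd2 (0.0822) and Etfdh (0.103) were lost. With 3 arrays per group and values near background for Cox8c, Ndufaf5 and Ndufaf6, small changes of these genes cannot be seen.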
